A study of Homo sapiens with 2 samples.

Results

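The regulators of the ATF4 network were examined as a set of 10 genes: the bZIP factors ATF4, ATF3, ATF5, JDP2, DDIT3 (CHOP), CEBPB, CEBPD and CEBPG, and the stress co-regulators NUPR1 and TRIB3. They were chosen by name, with earlier results of these arrays known, and each had 1 of the 22458 probe sets to which a gene symbol could be assigned. U87 cells, an established human glioblastoma line, received 20 µM LXR623 for 24 h, while control cells received 0.1% DMSO, the solvent, for the same time. Both were treated in medium with 1.5% fetal bovine serum. LXR623 is a synthetic agonist of the liver X receptors, nuclear receptors that sense oxysterols. Total RNA of each condition was hybridised to 1 Affymetrix array. Neither condition was repeated, so no p-value is given, and the small number of arrays limits how precise each value can be. Each value is an RMA expression value on the log2 scale and holds for these 2 arrays, and each difference is LXR623 minus DMSO.

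The label on cell culture names HCT116, a colon carcinoma line, where the other labels name U87. The 5 mesenchymal markers measured were listed between 7.04 (CHI3L1) and 12.46 (VIM), and the 8 colon epithelial markers between 3.25 (KRT20) and 5.43 (CDX2). CAV1 and CHI3L1 were at least 1.5-fold lower with LXR623, at -0.66 and -0.60. Of the genes that U87 cells are known to have lost, MTAP was listed at 3.39 with LXR623 and 3.04 with DMSO, CDKN2A at 4.06 with LXR623 and 3.77 with DMSO, and CDKN2B at 3.58 with LXR623 and 3.53 with DMSO. MTAP thus lay below the level filter described next, and CDKN2A and CDKN2B above it. Of the glial and neural progenitor markers, S100B and SOX2 lay below it on both arrays. GFAP was listed at 4.68 with LXR623 and 4.76 with DMSO, and SLC1A3 at 6.87 with LXR623 and 7.76 with DMSO (-0.89). OLIG2 was listed at 4.81 with LXR623 and 4.45 with DMSO, and NES at 5.39 with LXR623 and 5.68 with DMSO. The conflict between labels cannot be settled from these values, since probe sets differ in brightness. A filter on level removed probe sets whose mean over the arrays fell below the 25th percentile, at log2 3.39, and left 16902 genes. All 10 regulators lay above this level on both arrays.

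ATF4 is the main effector of the integrated stress response, in which kinases phosphorylate the translation factor eIF2 alpha. General translation then slows, while ATF4 mRNA is translated better. ATF4 binds DNA together with members of the C/EBP family and raises genes for amino acid synthesis, amino acid import and tRNA charging. It also raises further regulators, among them ATF3, CHOP and TRIB3, which extend or limit the response and can turn it toward cell death. ATF4 protein thus depends largely on translation, which an array does not measure.

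To place the regulators beside their own control regions, RefSeq promoter windows (250 bases before to 50 after a transcription start, GRCh38.p14) were matched by gene symbol. Of the 10 genes, 8 had at least 1 window and 19 windows were found in all; NUPR1 and CEBPD were not matched. The stretches below are shown because they hold the matches discussed next to the values. Capitals mark every match, on either strand, to TGATGNAA (the composite site read by ATF4 with C/EBP factors), TGACG (a core of the cAMP response element, contained in the full element TGACGTCA), TTGCGCAA (a C/EBP palindrome), TGACTCA (an AP-1 site) and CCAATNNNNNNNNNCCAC (the ER stress element without its last base). AP-1 and the ER stress element were added after the sequences had been read. For ATF4, ATF3 and DDIT3 the 250 bases before the outermost start in the table are given, and for CEBPG and JDP2 the 30 bases around the match.
ATF4, chr22:39520309-39520558, plus strand: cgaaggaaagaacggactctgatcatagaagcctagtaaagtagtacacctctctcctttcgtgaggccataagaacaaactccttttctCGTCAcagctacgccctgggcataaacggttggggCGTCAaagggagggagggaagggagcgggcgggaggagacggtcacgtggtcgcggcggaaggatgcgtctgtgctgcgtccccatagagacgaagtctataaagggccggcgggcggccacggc
ATF3, chr1:212565157-212565406, plus strand: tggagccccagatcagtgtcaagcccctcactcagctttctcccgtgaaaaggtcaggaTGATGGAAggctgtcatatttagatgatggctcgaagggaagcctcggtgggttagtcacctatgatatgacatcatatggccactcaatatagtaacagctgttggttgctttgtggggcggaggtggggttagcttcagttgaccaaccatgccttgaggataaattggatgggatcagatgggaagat
DDIT3, chr12:57520518-57520767, minus strand: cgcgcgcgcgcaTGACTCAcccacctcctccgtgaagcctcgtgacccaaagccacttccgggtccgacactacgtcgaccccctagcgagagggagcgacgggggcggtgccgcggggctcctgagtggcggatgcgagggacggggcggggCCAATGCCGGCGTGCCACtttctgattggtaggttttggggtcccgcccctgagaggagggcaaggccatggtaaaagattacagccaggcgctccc
CEBPG, chr19:33374060-33374089, plus strand: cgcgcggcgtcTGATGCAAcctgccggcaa
JDP2, chr14:75427992-75428021, plus strand: tatatagccggggcTGATGCAAcccgtccc

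The composite site was found in 1 window each of ATF3, CEBPG and JDP2, thus in 3 of the 8 matched regulators, and 3.62% of all 35116 windows (4.46% of 27305 genes) held it. CEBPG and JDP2 carried the same 8 letters, TGATGCAA, beginning 42 and 16 bases before the transcription start of the window holding them. ATF3 carried TGATGGAA, beginning 191 bases before the outermost of its 2 listed starts, and its other window did not hold the site. The core TGACG was found in 4 of the 8 matched regulators, ATF4, ATF5, CEBPB and JDP2, where 28.4% of all genes held it. By window it was in 5 of the 19 regulator windows, beside 24.6% of all windows. ATF4 held it in 2 places, both on the other strand. The full element (1.85% of windows) and the C/EBP palindrome (0.151%) were in none of the regulators' windows. The AP-1 letters were in DDIT3 and ATF5, in 3 of the 19 regulator windows (4.95% of all windows, 6.05% of genes). Those of the ER stress element were in DDIT3 alone, in 2 of the 19 (0.316% of all windows, 0.381% of genes). The base that follows them in DDIT3 is T and was not part of the pattern. Both patterns were added after the sequences had been read, so these matches and their shares are not independent of that reading. The 2 windows of DDIT3 overlap and hold the same sites, as do the 2 of ATF4. Counts by window thus include these sites more than once. All are matches of letters in short windows, and binding was not measured.

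All 10 regulators were higher in the LXR623 array, as were 8251 of the 16902 genes kept. Of the regulators, 8 were at least 1.5-fold higher, where 2.38% of the genes kept were. None was at least 1.5-fold lower, where 2.01% were. The median difference was 0.78, beside 0.00 over all genes kept. The exceptions to the 1.5-fold difference were ATF5 and CEBPD. To show how far single genes scatter, each difference was set beside the central 95% of differences of the 500 kept genes nearest to it in level. This scatter comes from the same 2 arrays and may hold responses to LXR623 as well as noise. By construction few genes lie above it, and a gene inside it is not shown to be unchanged. The same 8 regulators lay above that range, and ATF5 and CEBPD lay inside it.

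**Figure D1:**
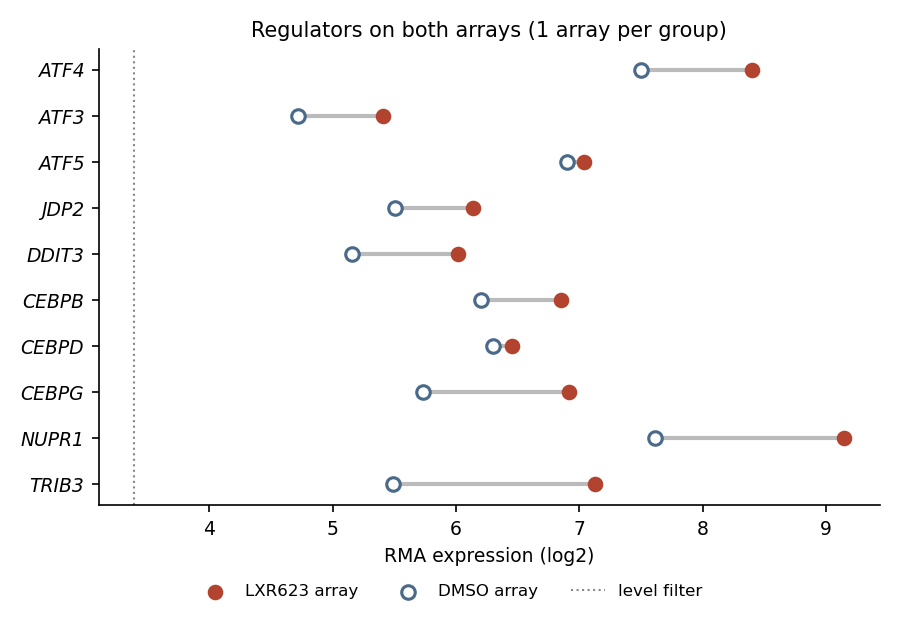
RMA expression (log2, horizontal axis) of the 10 regulators on the LXR623 array (filled) and the DMSO array (open), with a dotted line at the level filter of 3.39. In every gene the LXR623 point lies to the right of the DMSO point, from a gap of 0.14 in ATF5 to one of 1.64 in TRIB3.

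ATF4 itself was listed at 8.40 with LXR623 and 7.50 with DMSO. This corresponded to 1.87-fold (difference 0.90), place 81 from the highest among all genes kept, and lay above the range of genes of like level (-0.49 to 0.45). RefSeq holds 4 ATF4 pseudogenes, none with a probe set of its own here, and whether their transcripts reach the ATF4 probes is not given in the sources used here. ATF5, a close relative of ATF4 that is likewise controlled by translation and is tied to the mitochondrial stress response, was listed at 7.04 with LXR623 and 6.90 with DMSO. Its difference of 0.14 lay well inside the range at its level (-0.51 to 0.51). The difference of ATF4 thus exceeded that of ATF5, its neighbour in the ATF family, by 0.76 on the log2 scale, and this gap was not tested.

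ATF3, an immediate early factor that ATF4 and other stress pathways raise and that often represses its targets, was listed at 5.41 with LXR623 and 4.72 with DMSO. It was 1.61-fold higher (0.69), above its range of -0.65 to 0.58. JDP2 resembles ATF3 in its bZIP domain, pairs with Jun proteins and represses AP-1 sites. It was listed at 6.14 with LXR623 and 5.51 with DMSO, which is 1.55-fold (0.63, against a range of -0.57 to 0.54). Of the 8 regulators past 1.5-fold, JDP2 lay closest to that threshold. With each array centred on its median its difference was 0.59. In RefSeq JDP2 lies between FOS and BATF, members of the AP-1 family, at differences of 0.47 and 0.00 that lay inside the scatter at their level.

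Among the factors of the C/EBP family, the differences were unequal. CEBPG, which lacks a strong activation domain and acts as a partner of ATF4 and of other C/EBP factors, showed the widest gap. It was listed at 6.91 with LXR623 and 5.73 with DMSO, a 2.27-fold difference (1.18) at place 37 from the highest. DDIT3, which encodes CHOP, a C/EBP-related factor tied to cell death under prolonged stress, was listed at 6.02 with LXR623 and 5.15 with DMSO. CHOP mRNA was therefore 1.82-fold higher (0.86, place 95), outside its range of -0.61 to 0.61. The DDIT3 gene overlaps MARS1 in RefSeq, and MARS1, itself a target of ATF4, was listed at 9.37 with LXR623 and 8.68 with DMSO (0.69). Whether any probe lies in the shared stretch, or reads strand, is not given in the sources used here.

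CEBPB, an activator in inflammation, adipocyte differentiation and stress, was listed at 6.85 with LXR623 and 6.20 with DMSO, thus 1.56-fold higher (0.64). That value lay outside the range of genes of like level (-0.54 to 0.42). CEBPB and CEBPD are often raised together in acute inflammation, but here CEBPD was listed at 6.45 with LXR623 and 6.30 with DMSO. The difference of 0.15 was well inside its range of -0.60 to 0.51. CEBPD thus differed less from DMSO than CEBPB did, by 0.50 on the log2 scale, and with 1 array per group the difference between the genes was not tested. The remaining family members CEBPA and CEBPE were at -0.39 and 0.45, both inside the scatter at their level.

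**Figure D2:**
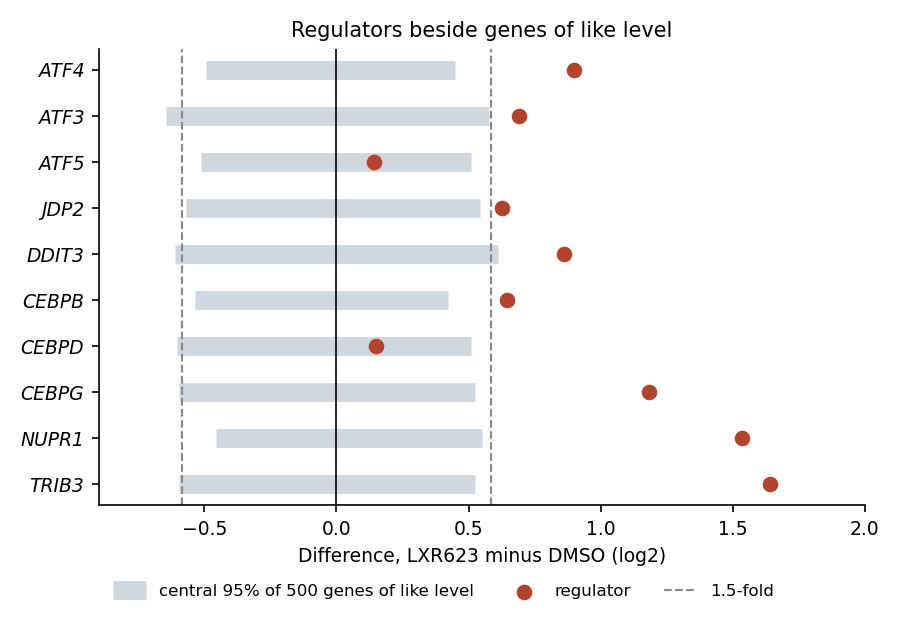
Difference of each regulator, LXR623 minus DMSO (log2, horizontal axis), with a bar for the central 95% of the 500 kept genes nearest in level and dashed lines at 1.5-fold. Points of 8 regulators lie to the right of their bars, and those of ATF5 (0.14) and CEBPD (0.15) lie within them.

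The co-regulators outside the bZIP class showed the widest differences of the set. TRIB3, a pseudokinase that binds ATF4, CHOP and AKT and limits the transcriptional response, was listed at 7.13 with LXR623 and 5.49 with DMSO, a 3.12-fold difference (1.64) at place 13 from the highest. NUPR1 is a small disordered chromatin-associated protein that is raised by many kinds of stress. It was listed at 9.15 with LXR623 and 7.61 with DMSO, 2.90-fold higher (1.53), at place 17. Together with CEBPG, TRIB3 and NUPR1 made up the 3 regulators that were at least 2-fold higher, where 0.337% of all genes kept were. Their paralogs differed far less. TRIB1, TRIB2 and STK40, the relatives of TRIB3, were at 0.26, 0.05 and -0.0038, and NUPR2 at 0.21, each inside the scatter at its level. In all, 5 of the 10 regulators stood within the first 100 of 16902 places from the highest, namely TRIB3, NUPR1, CEBPG, ATF4 and DDIT3.

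**Figure D3:**
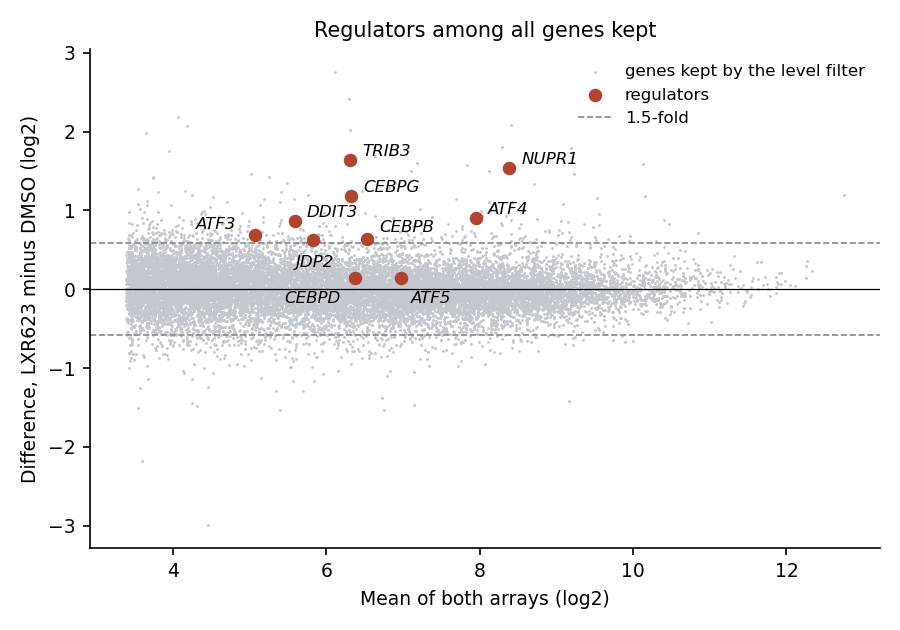
Difference, LXR623 minus DMSO (log2, vertical axis), against the mean of both arrays (log2, horizontal axis) for the 16902 genes kept (grey) and the 10 regulators (red), with dashed lines at 1.5-fold. The regulators span mean levels from ATF3 to NUPR1 and all lie above 0, with TRIB3 at 1.64 and NUPR1 at 1.53 near the upper edge of the cloud.

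To see whether bZIP factors in general were higher, the regulators of this class were set beside the other families. Of the 8 bZIP regulators, 6 were at least 1.5-fold higher, with a median of 0.67. Of 40 other bZIP factors kept, 2 were at least 1.5-fold higher and none lower, 21 were higher and 18 lower by any amount, and the median was 0.05. That is 5.00% past 1.5-fold, beside 2.38% of all genes kept. JUND, an AP-1 subunit, was listed at 8.50 with LXR623 and 7.79 with DMSO (0.71), and XBP1, a factor of the unfolded protein response, at 9.57 with LXR623 and 8.72 with DMSO (0.86). Both lay outside the scatter at their level.

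No other member of the ATF and CREB family came near 1.5-fold. The median of the 13 kept was 0.04, and they ran from -0.25 in CREB1 to 0.39 in CREB3. CREB3L1 was at -0.24 and CREB3L3 at 0.16. ATF6, which senses misfolded protein in the ER, was at -0.05 and its relative ATF6B at 0.12. In the AP-1 family the median of 10 was 0.11, with FOSB at 0.52, FOS at 0.47 and FOSL2 at -0.29 besides JUND. FOSB and FOS lay inside the scatter of dim genes. The MAF, NRF and BACH factors had a median of -0.03 over 10 genes, which turned to 0.05 without the level filter and 0.22 with one at the 50th percentile, with NRL at -0.45, NFE2L1 at 0.42, MAFF at 0.39 and MAF at -0.32, all within the scatter. Of the PAR-type factors, TEF was at -0.24, HLF at -0.10 and DBP at -0.06. NFIL3, which was listed beside them, was at 0.29.

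**Figure D4:**
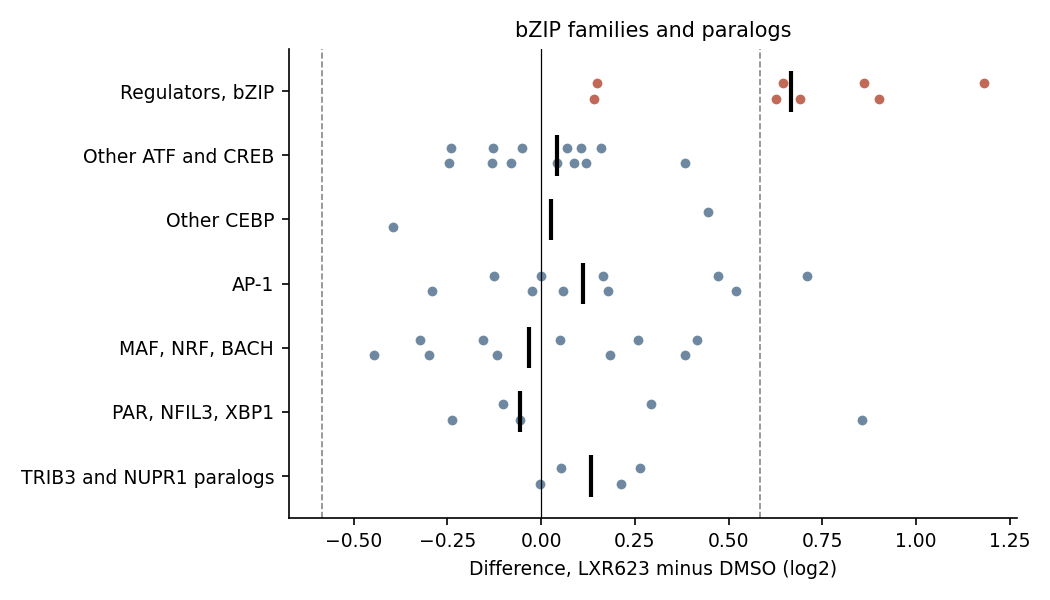
Differences, LXR623 minus DMSO (log2, horizontal axis), of the bZIP regulators (red) and of other bZIP families and the paralogs of TRIB3 and NUPR1 (blue), 1 point per gene kept, with a black bar at each median and dashed lines at 1.5-fold. The median of the bZIP regulators is 0.67, and those of the other groups lie between -0.06 and 0.13.

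Upstream of ATF4, mRNAs of eIF2 alpha signalling were largely similar on both arrays. The median of 8 genes was -0.01, with 3 higher, 4 lower and 1, DELE1, listed at the same value. The exception was EIF2AK3, which encodes the ER-resident eIF2 alpha kinase PERK. It was listed at 7.40 with LXR623 and 6.67 with DMSO, a difference of 0.73 that lay outside the scatter at its level. The other kinases EIF2AK1 (HRI), EIF2AK4 (GCN2) and EIF2AK2 (PKR) were at 0.24, -0.03 and -0.17, and EIF2S1, eIF2 alpha itself, at -0.19. Kinase activity depends on phosphorylation, which was not measured.

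Downstream, all 44 kept targets of ATF4 in the lists used here were higher, with a median of 0.73. Of the 44, 26 were at least 1.5-fold and 16 at least 2-fold higher. Over all 16902 genes kept, 8251 were higher, 2.38% at least 1.5-fold and 0.337% at least 2-fold. Which genes belong to these lists was decided with earlier results of these arrays known, so their direction is not independent evidence. In amino acid synthesis and one-carbon metabolism 10 of 12 were at least 1.5-fold higher, with a median of 1.11. They were the cysteine-forming enzyme CTH at 2.76, the mitochondrial folate enzyme ALDH1L2 at 2.41, asparagine synthetase ASNS at 1.60 and the serine synthesis enzyme PSAT1 at 1.46, and further CBS, PHGDH, PCK2, MTHFD2, PYCR1 and SHMT2, between 0.65 and 1.23. Of the amino acid transporters 5 of 8 were (median 0.84), namely SLC7A5 at 2.09, SLC6A9 at 1.72, SLC7A11 at 1.34, SLC3A2 at 0.96 and SLC1A5 at 0.73. SLC7A1 and SLC38A2, also described as ATF4 targets, were at 0.07 and 0.06.

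The genes of tRNA charging differed by less. Of 12, all higher, 5 reached 1.5-fold, and the median was 0.53. They were WARS1 at 1.08, GARS1 at 0.83, AARS1 at 0.80, MARS1 at 0.69 and the tRNA export factor XPOT at 0.61. In the feedback and signalling list 6 of 12 reached 1.5-fold (median 0.59). These were the activin subunit INHBE at 2.19, whose DMSO value of 2.97 lay below the level filter so that its size is uncertain, the glutathione-degrading enzyme CHAC1 at 2.03, the secreted cytokine GDF15 at 1.80, the mTORC1 inhibitors DDIT4 at 1.50 and SESN2 at 1.14, and EIF4EBP1 at 0.74. PPP1R15A (GADD34), which returns eIF2 alpha to its unphosphorylated form, was at 0.42, just above the range at its level (-0.53 to 0.40). Of the 35 targets with a promoter window, 14 held the composite site, CHAC1 and ASNS among them, where 4.46% of all genes with a window did. The genes were listed as targets of ATF4, so this count is not an independent result.

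Targets of the other regulators were less uniform. Of 6 genes described as CHOP targets, which include the ATF4 targets CHAC1 and PPP1R15A, 4 were higher and 2 lower, with a median of 0.27. CHAC1 alone was at least 1.5-fold higher. BCL2L11 (BIM), a pro-apoptotic BCL2 protein, was listed at 4.54 with LXR623 and 5.23 with DMSO, thus 1.61-fold lower (-0.69) and outside the scatter at its level. BBC3 (PUMA) was at 0.48 and the death receptor TNFRSF10B at 0.12. ERO1A, the ER oxidase described as a target of CHOP, was at -0.04.

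The chaperone and degradation genes that ATF6 and XBP1 control had a median of 0.08 over 16 genes. HERPUD1, which is also responsive to ATF4, was the 1 member past 1.5-fold, at 0.71. DNAJB11 was at -0.46, DNAJB9 at 0.39, SYVN1 at 0.31 and HSPA5 (GRP78) at 0.08. Inflammatory genes described as targets of CEBPB and CEBPD had a median of 0.45 over the 9 kept. Of these, 8 were higher and 4 at least 1.5-fold, where 2.38% of all genes kept were at least 1.5-fold higher. IL1B was listed at 7.86 with LXR623 and 6.35 with DMSO (1.51), CXCL8 at 7.73 with LXR623 and 6.71 with DMSO (1.02) and CSF3 at 8.51 with LXR623 and 7.52 with DMSO (0.99). SAA1 was at 0.63, a value made uncertain by its near-identical copy SAA2. PTX3 was at -0.38. The liver acute-phase genes HP, ORM1 and SAA2 lay below the filter and were lower with LXR623, at -0.15, -0.62 and -0.69.

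Genes for partners and turnover of the regulator proteins differed little, with a median of -0.06 over 11 genes. None was at least 1.5-fold higher and 1 was at least 1.5-fold lower. That gene, EGLN3, encodes a prolyl hydroxylase that lowers ATF4 protein and was listed at 3.88 with LXR623 and 4.49 with DMSO (-0.61), inside the scatter of dim genes. The F-box proteins BTRC and FBXW11, which mark ATF4 for degradation, were at 0.19 and 0.10. AKT1, bound by TRIB3, was at -0.20.

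**Figure D5:**
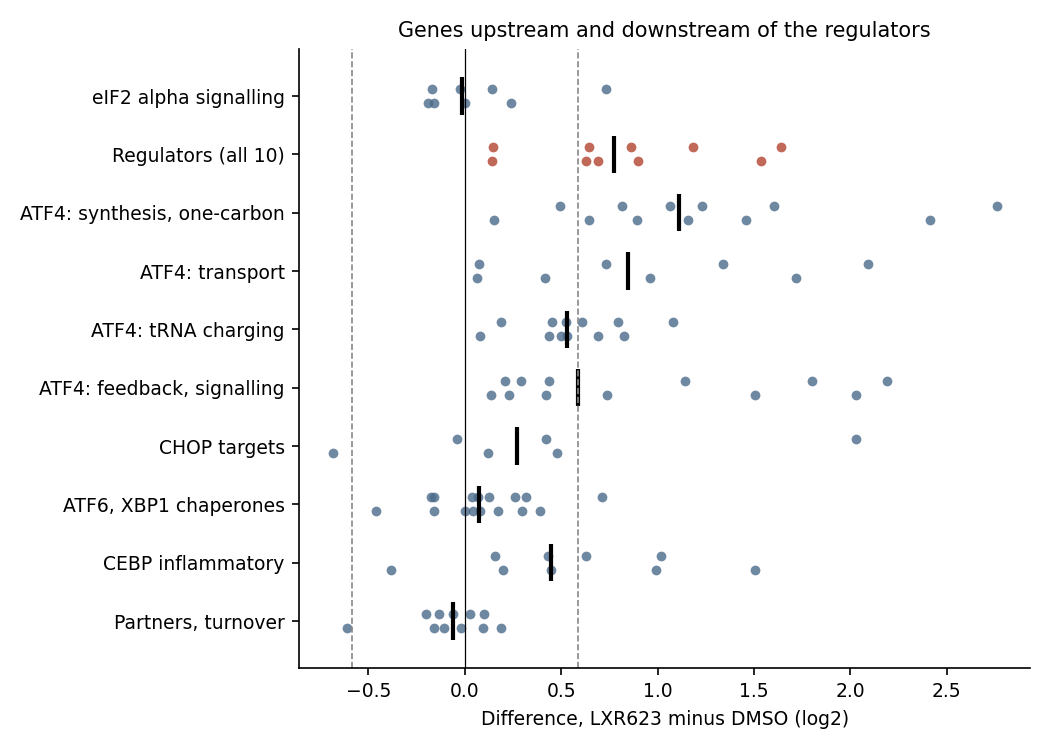
Differences, LXR623 minus DMSO (log2, horizontal axis), of genes upstream of ATF4, the 10 regulators (red) and genes downstream of or binding them (blue), 1 point per gene kept, with a black bar at each median and dashed lines at 1.5-fold. Medians run from 0.53 to 1.11 in the ATF4 target lists, and are 0.27 for CHOP targets, 0.08 for ATF6 and XBP1 chaperones and -0.01 for eIF2 alpha signalling.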

How the data were processed

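Log2 expression values per probe set were deposited. Per the labels, the authors computed them by RMA (background subtraction, quantile normalisation and median polish) with affy 1.36.1 in R 2.15.1. Quantile normalisation removes a shift shared by most genes, and RMA compresses differences of dim genes. The array model and genome build are not given in the sources used here. Of 23786 probe sets, 1328 had no symbol and entered no gene count. No gene had several sets, and 1150 sets held the same value on both arrays to every deposited digit. The arrays correlated at r = 0.989 across genes kept, which are not independent replicates, and their medians differed by 0.04.

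Symbols came from the platform annotation, updated by gene identifier to RefSeq (GRCh38.p14). Gene symbols listed without a named probe set were not used here. The members and lists were chosen with earlier results of these data known. Named were all 10 regulators and, of the other lists, genes at least 1.5-fold different or among the 4 most different. Other genes named beside these were chosen after their values were seen. No test was possible with 1 array per group, and protein sequences were not used here. The code for counting and scaling was tried on simulated data whose noise did not vary with level. On these arrays the scatter did vary with level, so that trial does not show how reliable the differences are. Alternatives were 2 scalings (median centring, or removing a lowess curve of span 0.3), no level filter or one at the 50th percentile, a 2-fold threshold, the mean, and leaving out the most different gene. Python 3.11.15, numpy 2.4.6, pandas 2.3.3, statsmodels 0.14.6 and matplotlib 3.10.9 were used.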

Additional observations from a re-analysis of the deposited data

How the results depend on the processing

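Under both scalings, 0 of the 20 differences of the 10 regulators moved beyond 1 SD of genes at a similar level. None changed sign. Median centring took the same 0.04 from every gene, less than the smallest regulator difference (0.14 in ATF5). It could thus turn no sign, and it was too small to move any regulator by 1 such SD. The count of regulators at least 1.5-fold higher was 8 under both scalings. Under both other level filters it was also 8, by construction. The lowest mean of the 10, 5.06 in ATF3, lay above the 50th percentile of 4.89. At 2-fold, by construction no higher, the count was 3. The median of the regulators lay between 0.69 (without TRIB3) and 0.84 (the mean). Over all genes, 402 were at least 1.5-fold higher and 339 lower. Median centring turned that split to 319 higher and 427 lower, the filter at the 50th percentile left 218 higher and 218 lower as fewer genes entered, and the 2-fold threshold left 57 higher and 28 lower. Of 108 list medians under alternatives, 13 moved by more than their expected spread, all of them in lists other than the regulators. For the PAR, NFIL3 and XBP1 factors the median of -0.06 turned to 0.12 with the filter at the 50th percentile and to 0.15 with the mean. The median of CHOP targets was 0.12 without CHAC1. The mean of all ATF4 targets was 0.91. For CEBPB and CEBPD targets the median was 0.32 without a level filter. No paired analysis was possible because there was a single array in either group. Dim genes such as EGLN3 and INHBE are resolved least well, and their signal was not set against background.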

Other observations

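The nearest protein-coding gene kept on each side of every regulator in RefSeq, a choice made after the regulators' values were seen, gave 20 neighbours. None was at least 1.5-fold higher or lower, where 2.38% and 2.01% of all genes kept were. At these shares few of 20 genes would be. The median difference of the neighbours was 0.02, from -0.39 in CEBPA beside CEBPG to 0.51 in SIGLEC11 beside ATF5. MIEF1 and RPS19BP1 beside ATF4 were at -0.03 and 0.05, NRSN2 and RBCK1 beside TRIB3 at -0.08 and 0.05, and IL27 and SGF29 beside NUPR1 at -0.05 and -0.02. UBE2V1 beside CEBPB was at -0.37 and PTPN1 on its other side at 0.11. Of genes that overlap a regulator in RefSeq, NUP62 and IL4I1 over ATF5 were at -0.03 and -0.20, while MARS1 over DDIT3 was at 0.69.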
